A study of Arabidopsis thaliana with 12 samples.

Results

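The 6 loci described here are *MIR822*, *MIR5020b*, *MIR835*, *MIR862*, *MIR863* and *MIR5656*, miRNA genes of *Arabidopsis* outside the conserved plant families that yielded 24-nt reads in seedlings. Each is represented by 1 named 100-bp bin of the 24-nt read table and by every other table bin within 300 bp of it, which gave 17 bins, 6 named and 11 flanking, of 57094 in all. Small RNA was sequenced from seedlings 2 weeks old. The 4 genotypes were WT and the single mutants *nrpe1-11*, *nrpd1-3* and *pkl-1*, each with 3 libraries, and the labels name no treatment. The seedlings were kept on plates at 22 °C, and each mutant is represented by a single allele. The values are reads per 10000000 mapped reads (RPTM), and reads of all mapped lengths enter the divisor while only 24-nt reads are counted in a bin.

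Plant miRNAs are cut from hairpins of Pol II transcripts, and most conserved ones are 21-nt products of the nuclease DCL1. Young miRNA genes often have long and nearly perfect hairpins, on which other Dicer-like enzymes, including DCL3, can act and release longer products. The 24-nt siRNAs of RNA-directed DNA methylation (RdDM) have another origin. Pol IV, whose largest subunit is NRPD1, transcribes the siRNA precursors, RDR2 makes them double-stranded, and DCL3 cuts them. Pol V, whose largest subunit is NRPE1, makes the scaffold transcripts that the siRNAs pair with. PKL is a chromatin remodeler of the CHD3 family. miRNA hairpins are made without Pol IV.

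The annotated mature products of the 6 genes are shown first, because a bin is read below by whether it holds one of them. They were read from the RefSeq reference genome of the TAIR10 nuclear sequence at the coordinates of its annotation, are written 5′ to 3′ as RNA, and have the seed, bases 2 to 8, in capitals.
miR822-5p: uGCGGGAAgcauuugcacaug
miR822-3p: uGUGCAAAugcuuucuacagg
miR5020b: aUGGCAUGaaagaaggugaga
miR835-5p: uUCUUGCAuauguucuuuauc
miR835-3p: uGGAGAAGauacgcaagaaag
miR862-5p: uCCAAUAGgucgagcaugugc
miR862-3p: aUAUGCUGgaucuacuugaag
miR863-5p: uUAUGUCUuguugaucucaau
miR863-3p: uUGAGAGCaacaagacauaau
miR5656: aCUGAAGUagagauuggguuu
All 10 products are 21 nt long in the annotation, while the reads counted here are 24 nt long. No seed is shared among the 6 genes. The seed of miR835-3p occurs in 3 other annotated products, miR164a, miR164b-5p and miR164c-5p, and the other 9 seeds occur in no other annotated miRNA. *MIR822* is a DCL4-processed gene whose products target genes of DC1-domain proteins, and miR863-3p is known to target transcripts of *SERRATE* and of an atypical receptor-like pseudokinase.

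The named bins differ in what part of the hairpin they cover, and 4 of them are shown on the strand of the precursor, with mature bases in capitals. The *MIR822* bin, chr5:897001-897100, carries the whole of miR822-3p and overlaps the 337-bp precursor, which lies opposite to an intron of AT5G03553. The *MIR5020b* bin, chr4:6787101-6787200, holds miR5020b and 53 bases of a 151-bp intergenic precursor. The *MIR862* bin, chr2:10718101-10718200, holds both arms, and its precursor lies in an intron of *PKL* itself, on the same strand. The *MIR863* bin, chr4:7846701-7846800, lies between the arms, and 80% of its bases are paired in the predicted fold. On the same strand, exons of the noncoding RNA gene AT4G13495 cover 74 bases of this bin and all 100 of the flanking bin chr4:7846601. No other annotated gene overlaps the flanking bin chr4:7846801.
MIR822: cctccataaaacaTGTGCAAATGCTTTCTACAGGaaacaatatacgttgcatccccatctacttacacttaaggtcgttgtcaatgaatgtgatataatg
MIR5020b: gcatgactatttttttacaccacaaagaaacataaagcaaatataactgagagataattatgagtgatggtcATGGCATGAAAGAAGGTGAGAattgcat
MIR862: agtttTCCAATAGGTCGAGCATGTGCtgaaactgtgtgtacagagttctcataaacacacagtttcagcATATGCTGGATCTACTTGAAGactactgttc
MIR863: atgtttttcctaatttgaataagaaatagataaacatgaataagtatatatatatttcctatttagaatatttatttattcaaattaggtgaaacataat
The *MIR835* bin, chr1:28544501-28544600, also lies between the arms, inside a 400-bp precursor that shares its strand with a noncoding exon of AT1G76065. The *MIR5656* bin, chr1:1727401-1727500, has only 15 bases in the 153-bp precursor and none of miR5656, and lies in an intron of AT1G05780. A 24-nt read in these bins is therefore not a mature product of the annotation, and at *MIR835*, *MIR863* and *MIR5656* the named bin holds no mature base at all.

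All 17 bins exceeded 5 RPTM in at least 1 of the 12 libraries, the level required for testing, as did 56658 bins of the table. For 2 of them, the *MIR862* bin and the *MIR835* bin at chr1:28544701, only *nrpd1* libraries exceeded it, so these bins would not have been tested without being high in *nrpd1*. A library had between 5598380 and 12390784 mapped reads, so that 1 read was worth 0.807 to 1.79 RPTM. A bin with 0 reads allows a level of up to 3 reads, which is 2.42 to 5.36 RPTM in a single library and covers counting error only. Nothing in the labels states a common culture day for libraries with the same number, and p-values measure the spread between the 3 libraries of a genotype. Over the 43 bins of 33 conserved miRNA genes, the summed 24-nt level averaged 434 ± 56.2 RPTM in WT (SD, n = 3) and 421 ± 90.8 RPTM for *pkl*. It was 937 ± 129 RPTM for *nrpd1* and 489 ± 107 RPTM for *nrpe1*. The *nrpd1* sum was thus 2.16 times the WT sum. This is a description, because some of the 43 bins can have passed 5 RPTM only through *nrpd1*. The rise was uneven, with 7 of the 43 bins called higher and 0 lower in *nrpd1* by limma. A *MIR160c* bin had a mean of 96.7 RPTM in *nrpd1* and 2.94 in WT, and a *MIR319a* bin 89.9 and 3.36. What part of the *nrpd1* levels below goes with the rise of this sum was not tested.

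Levels are given per 100-bp bin, all bins being of 1 length. They come from whole seedlings, in which fewer cells with a product and less of it per cell cannot be told apart. In WT the *MIR822* bin had 30.5 ± 6.81 RPTM (SD, n = 3), the *MIR5020b* bin 17.1 ± 4.14, and the lowest *MIR822* library, at 25.1 RPTM, was above the highest *MIR5020b* library, at 20.9 RPTM. The *MIR863* bin followed with 3.59 ± 2.47 RPTM, the *MIR5656* bin with 2.43 ± 1.03, the *MIR835* bin with 1.27 ± 1.22 and the *MIR862* bin with 0.424 ± 0.734, and the ranges of these neighbours overlapped. In *nrpd1* the order was *MIR5020b*, *MIR822*, *MIR835*, *MIR863*, *MIR5656* and *MIR862*, with overlapping ranges between *MIR5020b* and *MIR822* and between *MIR863* and *MIR5656*. *MIR5020b* stood first in *nrpe1*, at 299 ± 166 RPTM, ahead of *MIR822* at 40.8 ± 10.9. In *pkl* the order of the first 4 genes was that of WT.

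**Figure D1:**
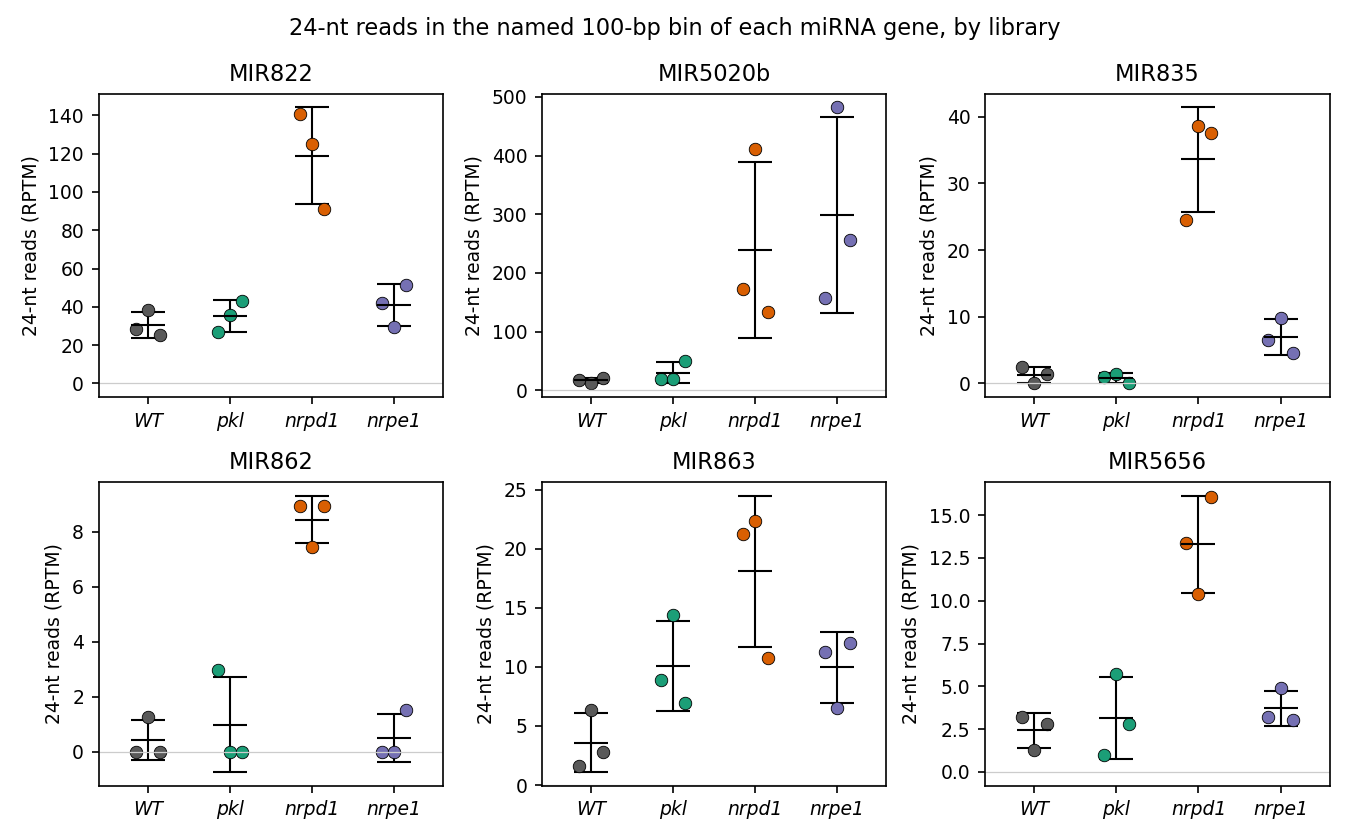
24-nt reads in RPTM (linear y axis, 1 panel per gene) in the named bin of each gene, with 1 point per library and the mean ± SD of the 3 libraries of each genotype. All *nrpd1* points lie above all WT points in each panel, and the *nrpe1* points reach the *nrpd1* level at *MIR5020b*, where they range from 158 to 482 RPTM.

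The 6 named bins share a higher level in *nrpd1* than in WT. They are taken as chosen by that difference, so the *nrpd1* values are given as a description. At *MIR822* the WT libraries had 28.2, 38.2 and 25.1 RPTM and the *nrpd1* libraries 141, 125 and 91.1. At *MIR835* the WT libraries had 2.42, 0 and 1.40 RPTM and the *nrpd1* libraries 24.6, 38.7 and 37.5. At *MIR862* a single read was found in all WT libraries together, 1.27 RPTM in replicate 2, and the *nrpd1* libraries had 8.93, 7.43 and 8.93 RPTM. No *nrpd1* library overlapped WT at these 3 genes. Over all tested bins, 0.762% had all *nrpd1* libraries above all WT libraries and 86.5% had them all below. For the other mutants the shares were 9.35% above and 24.5% below for *pkl*, and 7.45% above and 41.7% below for *nrpe1*. The *MIR863* bin had 1.61, 6.36 and 2.79 RPTM in WT and 21.2, 22.3 and 10.7 in *nrpd1*, and the *MIR5656* bin 3.23, 1.27 and 2.79 in WT and 13.4, 10.4 and 16.1 in *nrpd1*. The *nrpd1* libraries were again all above WT, the nearest being *nrpd1* replicate 3 at *MIR863*. Because *MIR862*, *MIR835* and *MIR5656* rest on 1, 4 and 7 WT reads, their ratios are wide: *nrpd1* had 23.2 times the pooled read rate of WT at *MIR862* (95% exact counting interval 3.66 to 966), 22.2 times at *MIR835* (8.30 to 83.9) and 5.15 times at *MIR5656* (2.20 to 14.0). These intervals cover the counting error of pooled reads and not the spread between libraries. They are no test of a difference, because the bins are taken as chosen by it.

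By limma on log2(RPTM + 1) with Benjamini-Hochberg adjustment over the 56658 bins and a threshold of 0.01, 0.141% of the tested bins were higher and 84.6% lower in *nrpd1* than in WT. The median difference over all of them was -2.95 (log2). The count of higher bins depends on the scale, being 80 here, 1345 with equal 24-nt totals, 705 with edgeR and TMM and 13 with equal totals over the conserved miRNA bins. The 6 named bins are among the 80, which follows from their choice, and nothing is read from it. Their differences were 1.93 (*MIR822*), 3.58 (*MIR5020b*), 4.07 (*MIR835*), 2.84 (*MIR862*), 2.13 (*MIR863*) and 2.09 (*MIR5656*). With libraries scaled to equal totals over the conserved miRNA bins, the differences were smaller, at 2.49 for *MIR5020b*, 3.18 for *MIR835*, 2.18 for *MIR862*, 0.84 for *MIR822*, 1.16 for *MIR863* and 1.16 for *MIR5656*. With 1 library left out, the *MIR863* difference lay between 1.79 and 2.53. Of the 11 flanking bins none was called higher and 2 were called lower, both at *MIR5020b*. Without a call, flanks at *MIR822*, *MIR835* and *MIR863* still had all *nrpd1* libraries above all WT libraries. With the 6 named bins these made 11 of the 17, beside 0.762% of all tested bins. The largest flank difference, 2.09 at chr5:897301 (limma adjusted p = 0.011), exceeded that of its named bin. These flanks lie at loci taken as chosen by *nrpd1*, so nothing is read from the count. The scale of the conserved bins is itself taken from 24-nt reads, and neither scale measures molecules per cell.

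*MIR5020b* held the sharpest contrast between neighbouring bins. The named bin, with miR5020b, had 17.8, 12.7 and 20.9 RPTM in WT and 172, 412 and 134 in *nrpd1*. The adjoining bin at chr4:6787201, just outside the precursor, had 11.3, 16.5 and 8.37 RPTM in WT and no read in any *nrpd1* library. The group mean there was at least 2.75-fold lower, against the mean value of 3 reads in a *nrpd1* library. The bin at chr4:6786801, also outside the precursor, had 40.4, 62.3 and 54.4 RPTM in WT and again no read in *nrpd1*, at least 11.9-fold lower. Just outside the 300-bp window, chr4:6786701 had 40.4, 42.0 and 54.4 RPTM in WT and none in *nrpd1*. So the named bin and a bin that touches it had opposite directions in the same libraries. The bin at chr4:6787001, which covers the other 98 bases of the precursor but no mature base, had 4.84, 5.09 and 4.19 RPTM in WT and 3.35, 7.43 and 1.79 in *nrpd1*, which overlapped. Its *nrpe1* libraries had 17.7, 9.81 and 6.02 RPTM, all above WT, with a difference of 0.98 (95% interval -0.03 to 1.99, limma adjusted p = 0.12). Within the precursor bins, the named bin held 77.8% ± 5.99 of the reads in WT (SD, n = 3) and 98.3% ± 0.311 in *nrpd1*. This rise in share is a description, since the named bin is taken as chosen by its *nrpd1* level. The locus is repeated in part, as only 65.0% of the 24-mers that overlap the named bin occur once over all sequences of the reference genome. The share was 49.6% at chr4:6787201, 56.9% at chr4:6786801 and 82.1% at chr4:6787001, against 98.4% to 100% at the bins of the other 5 genes. Only uniquely mapped reads were counted, and how far this bears on the contrast between the bins was not tested.

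**Figure D2:**
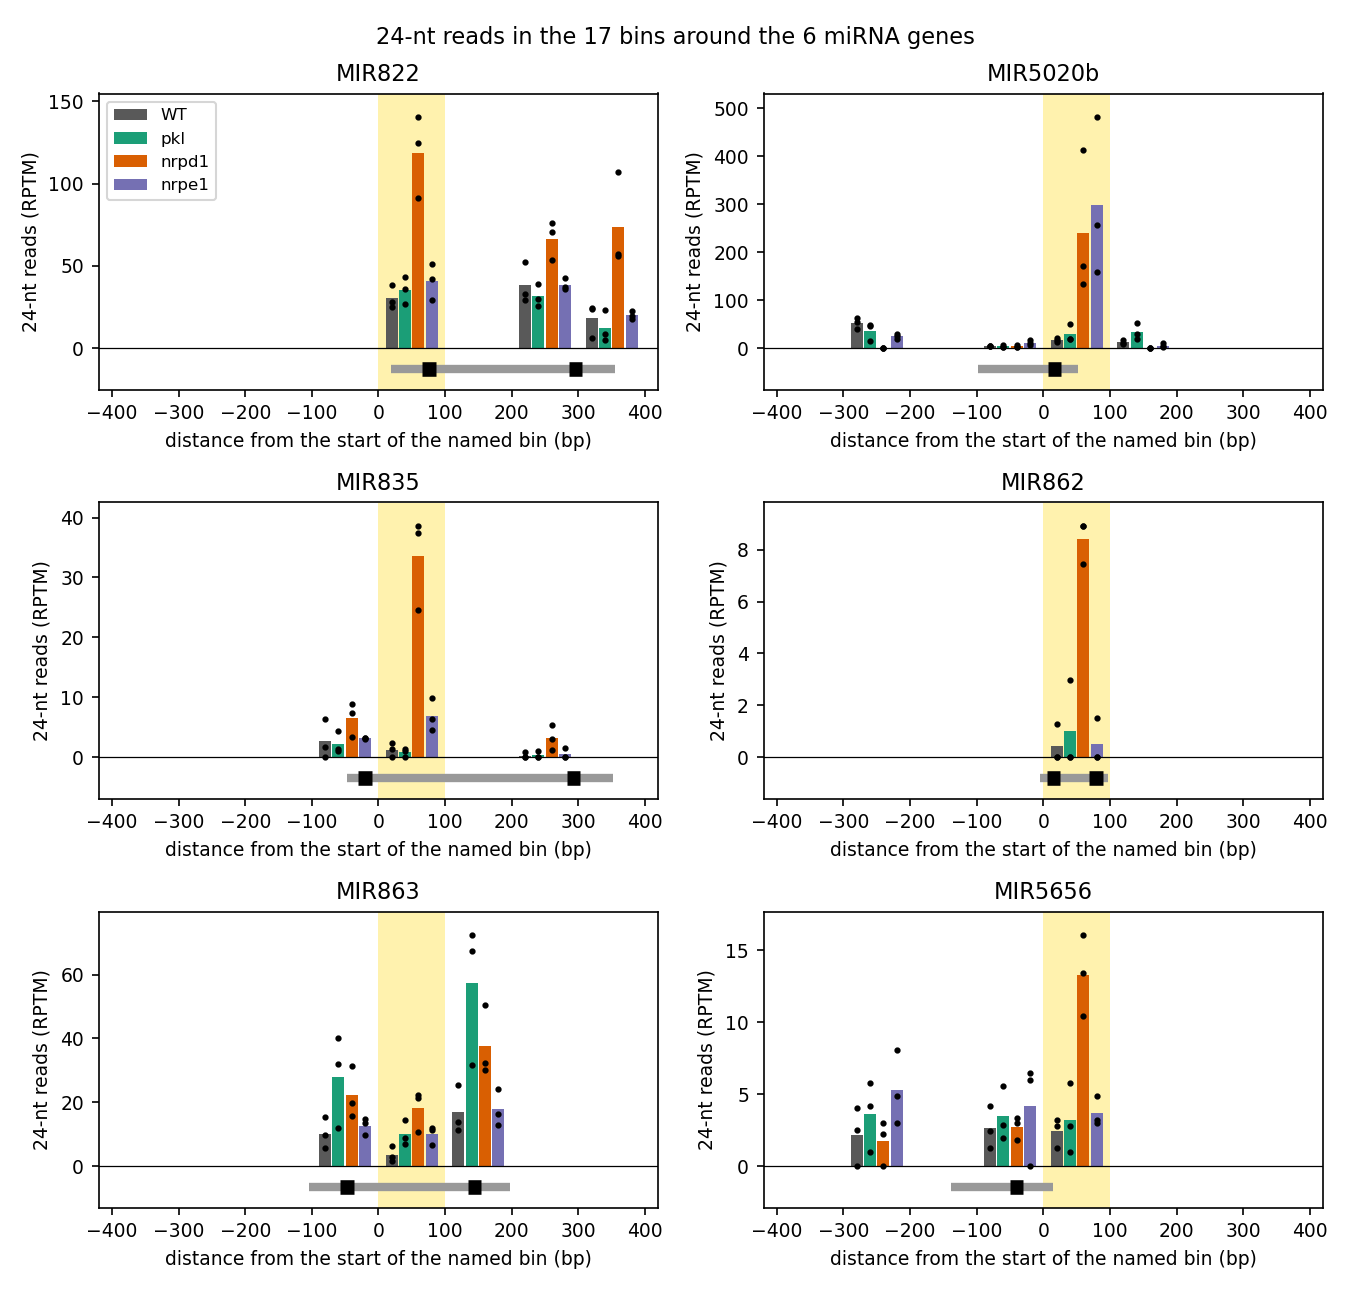
Mean 24-nt reads in RPTM (bars, linear y axis) and the 3 libraries of each genotype (black points) in the 17 bins, by distance in bp from the start of the named bin (yellow). The grey line is the annotated precursor and the black blocks are its mature products. At *MIR5020b* the bars of *nrpd1* are at 0 in the bins 300 bp before and 100 bp after the start of the named bin, and at 239 RPTM within it.

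*MIR5020b* was the one gene of the 6 with a call in *nrpe1*, in a comparison that uses the same WT libraries as the choice of the bins. Its named bin had 158, 482 and 256 RPTM in *nrpe1*, all above the 3 WT libraries, and was 3.92 ± 0.40 higher on the log2(RPTM + 1) scale (SE, limma adjusted p = 0.000150). It stayed past the threshold in all 17 alternatives, with adjusted p up to 0.0037. Replicate 2 had the highest value in both *nrpd1* and *nrpe1*, and the difference between those mutants was -0.34 ± 0.61 (SE, *nrpd1* minus *nrpe1*, limma adjusted p = 0.69). The bin at chr4:6786801 had 19.3, 24.5 and 30.1 RPTM in *nrpe1*, all below WT, with a difference of -1.06 (limma adjusted p = 0.016), which missed the threshold. In *nrpe1* 1.02% of the tested bins were higher and 29.4% lower than in WT. The 17 bins counted 1 higher and 0 lower call, where limma at an unadjusted p under 0.05 had 4 bins in either direction, and edgeR with the authors' library sizes called the *MIR5020b* bin higher and chr4:6786801 lower. Of the 56658 tested bins, 26569 had an unadjusted p under 0.05 by limma.

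At *MIR835* the *nrpe1* libraries had 6.44, 9.81 and 4.51 RPTM, all above the highest WT library at 2.42. The difference of 1.92 (95% interval 0.62 to 3.22, limma adjusted p = 0.026) did not pass, and rests on 13 *nrpe1* and 4 WT reads. At *MIR863* the *nrpe1* libraries had 11.3, 6.54 and 12.0 RPTM, the lowest of them just above the highest WT library, at 6.36. The difference was 1.35 (95% interval 0.21 to 2.49, limma adjusted p = 0.062). The *MIR822* bin had 41.9, 29.4 and 51.1 RPTM in *nrpe1*, overlapping WT, and differed by 0.40 (95% interval -0.29 to 1.08). *MIR862* had 1 read in all *nrpe1* libraries together, and *MIR5656* had 3.22, 4.91 and 3.01 RPTM, with a difference of 0.49 (95% interval -0.53 to 1.50). Calls at these 5 genes were thus not made, and the intervals leave room for differences of more than 1 log2 unit at each of them.

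A direct look at *nrpd1* against *nrpe1* shares the *nrpd1* libraries with the choice of the bins, and is again a description. *MIR822*, *MIR835*, *MIR862* and *MIR5656* were higher in *nrpd1*, by 1.53, 2.15, 2.79 and 1.6 (log2), as was the *MIR822* bin at chr5:897301, while chr4:6786801 was lower. In that comparison 0.0653% of the tested bins were higher and 43.2% lower in *nrpd1*. *MIR863* differed by 0.78. With a replicate block none of the higher bins named here passed the threshold, with limma adjusted p from 0.015 to 0.033. The *pkl* libraries against *nrpd1* also share libraries with the choice, and nothing is read from their counts. They gave 2 higher bins, chr4:6786801 and chr4:6787201 beside *MIR5020b*, and 6 lower ones, the named bins except that of *MIR863* and the bin chr5:897301, over a background of 74.7% higher and 0.191% lower.

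*MIR863* held the one call among the 17 bins in *pkl*, in a comparison that also uses the same WT libraries as the choice of the bins. Its 3 bins cover the 5p arm, the stem between the arms and the 3p arm. In the 3p arm bin, chr4:7846801-7846900, the WT libraries had 11.3, 25.4 and 14.0 RPTM and the *pkl* libraries 31.7, 67.5 and 72.5. All *pkl* libraries were above WT, and the bin rose by 1.69 ± 0.44 (SE, log2, limma adjusted p = 0.0062). The 5p arm bin had 9.68, 15.3 and 5.58 RPTM in WT and 11.9, 40.2 and 32.1 in *pkl*, with a difference of 1.31 (adjusted p by limma 0.066). The named bin between them had 8.92, 14.4 and 6.97 RPTM in *pkl*, all above WT, with a difference of 1.35 (adjusted p by limma 0.098). The shares of the 3 bins in the reads of the locus overlapped between *pkl* and WT. The 3p arm bin held 55.5% ± 6.38 of the reads in WT (SD, n = 3) and 60.2% ± 4.86 in *pkl*, and the named bin 11.1% ± 3.42 and 11.7% ± 5.37. In *nrpe1* the named bin held 25.0% ± 8.0 and in *nrpd1* 23.4% ± 7.46, each library above each WT library. The *nrpd1* share is a description, since the named bin is taken as chosen by its *nrpd1* level. The *nrpd1* libraries had 30.1, 50.6 and 32.2 RPTM in the 3p arm bin, all above WT, and the *nrpe1* libraries 12.9, 16.4 and 24.1, which overlapped WT. The 3p arm call in *pkl* ended with a pseudocount of 0.1 and on leaving out *pkl* replicate 2 or 3 or any of the 3 WT libraries, with adjusted p up to 0.070 over all alternatives.

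No named bin was called in *pkl* by limma, nor by edgeR with either library size, and 1 of the 6 had an unadjusted p under 0.05, that of *MIR863*. DESeq2 called none and gave no adjusted p for *MIR835*, *MIR862* and *MIR5656*. The *MIR822* bin had 26.8, 35.9 and 43.2 RPTM in *pkl* and differed by 0.20 (95% interval -0.63 to 1.03). The *MIR5020b* bin had 19.8, 18.7 and 50.2 RPTM, where replicate 3 lay far above WT, and differed by 0.63 (95% interval -0.30 to 1.56). *MIR862*, in the intron of the mutated gene, had 3 reads in *pkl*, all in replicate 1, against 1 in WT. The limit at this depth is coarse, with a 95% interval of -1.61 to 2.15. The *MIR835* bin had 0.991, 1.44 and 0 RPTM and the *MIR5656* bin 0.991, 5.74 and 2.79, both overlapping WT. Over the 17 bins 1 was higher and 0 lower, beside 1.98% higher and 8.2% lower among all tested bins. By limma, 4 of the 17 and 17070 of the 56658 tested bins had an unadjusted p under 0.05. The median difference of the 17 was 0.20, that of all tested bins -0.31. The choice of the bins used the same WT libraries, so nothing is read from these 2 medians.

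**Figure D3:**
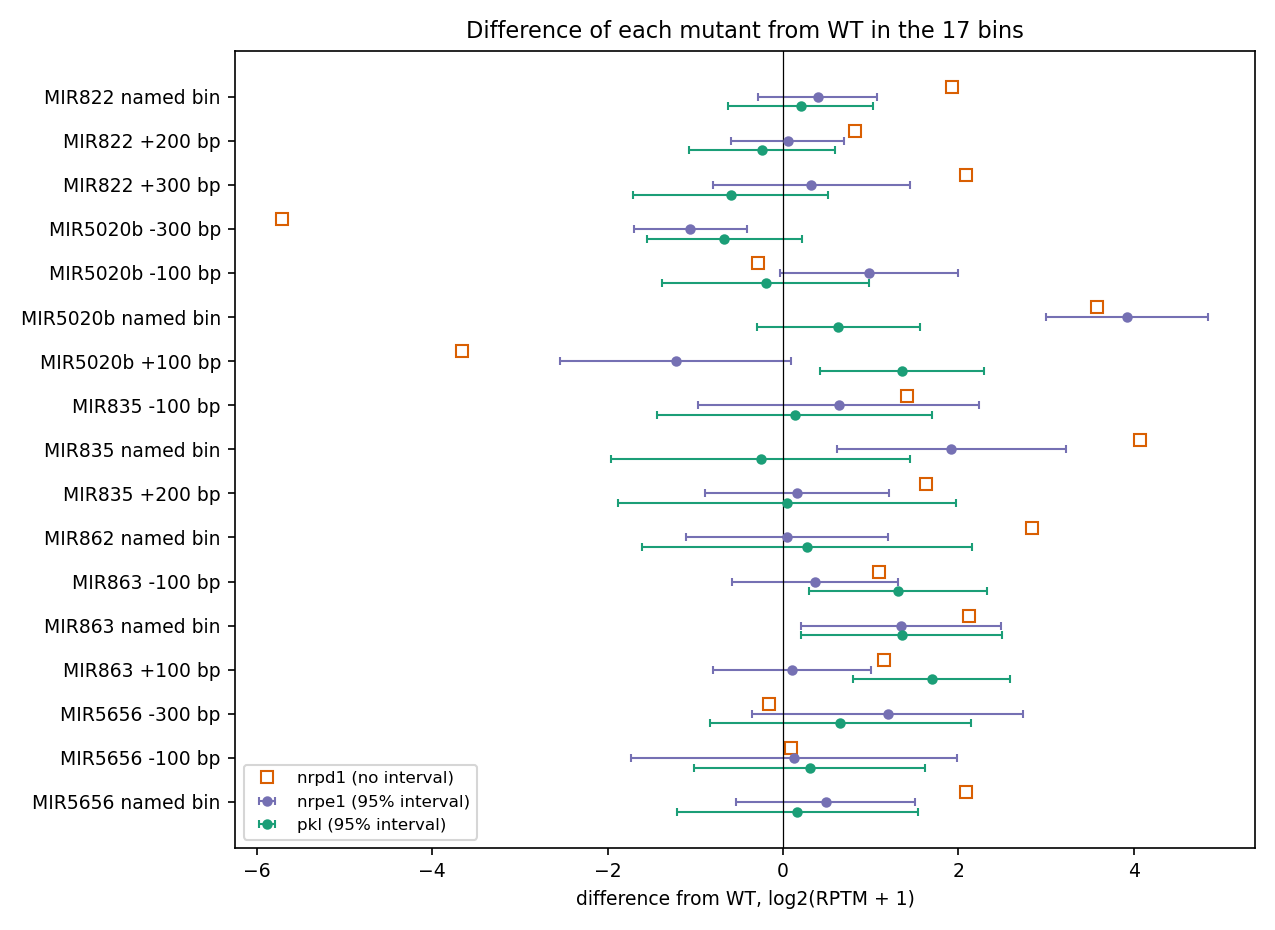
Difference of each mutant from WT in log2(RPTM + 1) for the 17 bins, labelled by gene and by distance from the start of the named bin, with 95% intervals from limma for *pkl* and *nrpe1*. The *nrpd1* squares carry no interval because the bins were chosen with these values in view. The *nrpe1* interval of the *MIR5020b* named bin runs from 3.00 to 4.85.

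The flank of *MIR5020b* differed between *pkl* and *nrpe1*, a comparison that uses neither the WT nor the *nrpd1* libraries. At chr4:6787201 the *pkl* libraries had 19.8, 30.1 and 51.6 RPTM and the *nrpe1* libraries 4.83, 9.81 and 1.50. All *pkl* values were above all *nrpe1* and all WT values, and the bin was 2.59 ± 0.59 higher in *pkl* than in *nrpe1* (SE, limma adjusted p = 0.0087). The named bin next to it had the opposite sign, with *pkl* lower by 3.29 ± 0.48 (SE, limma adjusted p = 0.00095). Background shares in this comparison were 18% higher and 0.973% lower in *pkl*. Both calls depend on single libraries: that of the named bin ended without *pkl* replicate 1 or 2, with adjusted p up to 0.019, and that of chr4:6787201 ended with a pseudocount of 0.1, with equal 24-nt totals, without any 1 of the *pkl* libraries and without *nrpe1* replicate 1 or 3, with adjusted p up to 0.064. Against WT the chr4:6787201 bin was at 1.36 in *pkl* (95% interval 0.43 to 2.29, limma adjusted p = 0.037) and did not pass. Beyond the 300-bp window, the *pkl* libraries also lay above all WT libraries at chr4:6787501, with 14.9, 5.74 and 19.5 RPTM against 0.807, 0 and 1.40, and no *nrpd1* library had a read there. At chr4:6787701 the *pkl* libraries had 13.9, 24.4 and 46.0 RPTM and the WT libraries 2.42, 3.82 and 1.40. These bins were singled out after their values had been seen.

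The 3 bins of *MIR822* were all higher in every *nrpd1* library than in WT, by unequal amounts. The bin chr5:897201 holds 14 bases of miR822-5p and the bin chr5:897301 the other 7. In WT they had 33.1, 52.1 and 29.3 RPTM and 6.46, 24.2 and 23.7 RPTM, and in *nrpd1* 70.3, 75.8 and 53.6 and 55.8, 107 and 57.2. The *nrpd1* means were 1.74 and 4.05 times the WT means, beside 3.90 times in the named bin. The share of locus reads in chr5:897201 was 44.0% ± 5.82 in WT (SD, n = 3) and 25.9% ± 1.05 in *nrpd1*, and no *nrpd1* library reached the lowest WT share of 37.5%. The *nrpd1* share is a description, since the named bin of the locus is taken as chosen by its *nrpd1* level. In *pkl* and *nrpe1* the shares of chr5:897201, 40.6% ± 5.89 and 39.2% ± 6.82, overlapped WT. Their differences from WT in *pkl* were -0.24 at chr5:897201 and -0.60 at chr5:897301, opposite in sign to the named bin and past no threshold. No other table bin lies within 21900 bp of the locus, the largest such gap among the 6 genes.

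At *MIR835* and *MIR5656* the arm bins had low levels in *nrpd1* where the named bin was high. The named bins are taken as chosen by their *nrpd1* level, so this contrast and the *nrpd1* shares below are a description. The *MIR835* bin with miR835-3p, chr1:28544401, had 3.35, 7.43 and 8.93 RPTM in *nrpd1* and 1.61, 6.36 and 0 in WT, which overlapped. The bin with 17 bases of miR835-5p, chr1:28544701, had 1.12, 2.97 and 5.36 RPTM in *nrpd1*, all above the WT libraries, at 0.807, 0 and 0. Its difference of 1.63 (log2) rests on 6 *nrpd1* reads and 1 WT read. The named bin held 78.6% ± 6.10 of the *nrpd1* reads of the locus. At *MIR5656* the bin with the mature product, chr1:1727301, had 3.35, 2.97 and 1.79 RPTM in *nrpd1* and 2.42, 1.27 and 4.19 in WT. The named bin, most of it beyond the annotated precursor, held 82.6% ± 6.51 of the *nrpd1* reads of the 2 bins, and 49.1% ± 8.61 of 14 reads in WT. The remaining bin, chr1:1727101, outside the precursor, lay between 0 and 8.05 RPTM in all genotypes, with no called difference from WT.

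Predicted folds, which the choice did not use, differed among the 6 genes. By RNAfold the precursors paired 70.2% (*MIR5020b*) to 86.3% (*MIR5656*) of their bases, where the median of 326 annotated miRNA precursors was 73.1%. *MIR5656*, *MIR863*, *MIR822* and *MIR862* ranked 11, 19, 32 and 46 from the top, whereas *MIR835* ranked 179 and *MIR5020b* 209. The longest uninterrupted helix was 13 bp at *MIR835*, 19 bp at *MIR5020b* and 21 to 23 bp in the other 4 genes, against a median of 12 bp over all precursors. Precursor lengths ran from 103 bp (*MIR862*) to 400 bp (*MIR835*), and the median of the 6, 228 bp, compares with 144.5 bp for all. *MIR5020b*, the gene with the least pairing, was also the one with repeated 24-mers, with neighbours lost in *nrpd1*, and with the call in *nrpe1*. *MIR835*, near it with 72.5% of bases paired, had none of these other traits. Bins lower in *nrpd1* than in WT made up 84.6% of all tested bins. A link between pairing and the other traits was not tested.

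**Figure D4:**
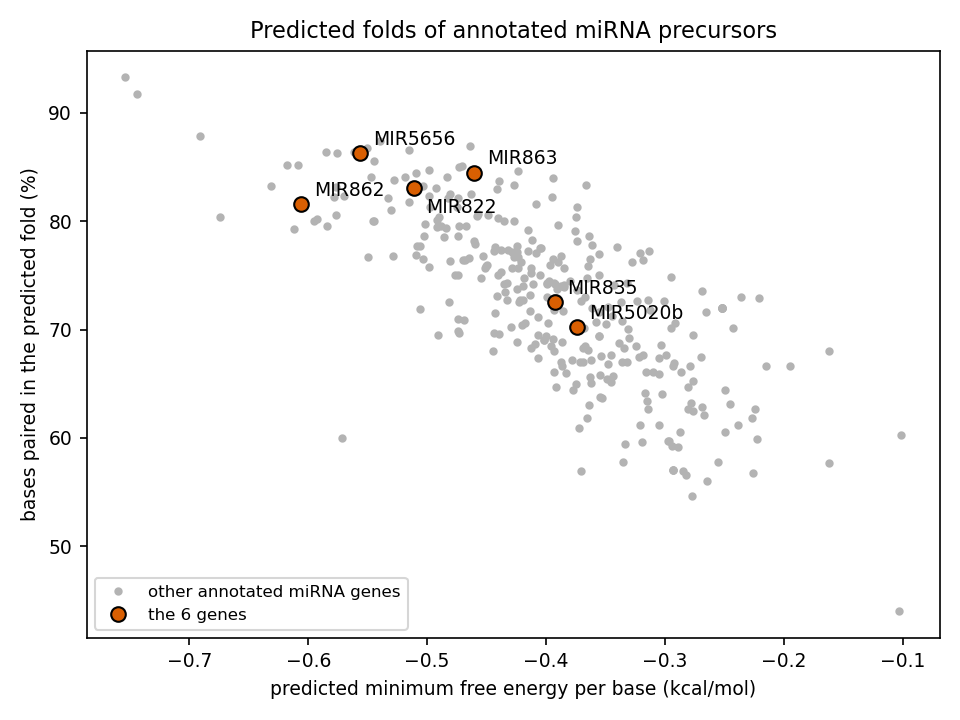
Share of paired bases (%) against the minimum free energy per base (kcal/mol) in the predicted fold of each annotated miRNA precursor, with 1 point per gene. The 6 genes are labelled, and 4 of them lie above 81% paired bases, while *MIR835* and *MIR5020b* lie near the median of 73.1%.

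The other annotated miRNA genes place these values. Among 176 tested bins over 94 genes that belong to neither the conserved list nor the 6, limma called 6 higher and 106 lower in *nrpd1* than in WT, with a median difference of -2.87 (log2), while the 43 conserved bins gave 7 higher and 0 lower calls with a median of 0.77. These counts in *nrpd1* move with the tool. The conserved bins had 10 higher calls by edgeR with the authors' library sizes, 25 by edgeR with TMM and 3 by DESeq2, and the 176 bins had 12, 28 and 5. In *nrpe1* the calls over the 176 bins were 2 higher and 72 lower with a median of -1.45, and the conserved bins had none by limma (4 at an unadjusted p under 0.05), none by edgeR with the authors' library sizes and 2 higher by edgeR with TMM. In *pkl* the 176 bins gave 9 higher and 16 lower calls, and the conserved bins none by limma (3 at an unadjusted p under 0.05) and 1 higher by DESeq2. By limma over all tested bins, 0.141% were higher and 84.6% lower in *nrpd1*. The shares were 1.02% and 29.4% in *nrpe1*, and 1.98% and 8.2% in *pkl*. Of the DCL4-processed genes *MIR822*, *MIR839* and *MIR869*, 2 had tested bins, 5 in all, and the named bin of *MIR822* was the only call in *nrpd1* by limma. edgeR with the authors' library sizes and DESeq2 called 2 of the 5 higher, and edgeR with TMM called all 5. As 3 of the 5 are the bins of *MIR822*, whose named bin is taken as chosen by *nrpd1*, nothing is read from these counts. Across the 12 libraries, the profiles most like those of the named bins, among 68 other miRNA genes with a mean of at least 10 RPTM, were those of *MIR319b* for *MIR822* (Pearson's r = 0.89) and *MIR862* (0.88), *MIR160c* for *MIR835* (0.89) and *MIR5656* (0.86), *MIR168a* for *MIR5020b* (0.85) and *MIR1888b* for *MIR863* (0.73). The second in each case were *MIR837*, *MIR160c*, *MIR162b*, *MIR319a*, *MIR4245* and *MIR5026*, in the same order of genes. The libraries fall into 4 genotypes and share their divisors, so these coefficients describe likeness only.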

How the data were processed

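Total RNA of seedlings was gel-selected for small RNA and sequenced by the submitters. By their processing notes and the methods, the authors used CASAVA 1.8, Trim Galore 0.4.0, BWA 0.7.15, bedtools and edgeR. Bases under the quality limit and structural RNA reads were removed, and uniquely mapped reads were kept. The deposited values are a signal per 100-bp bin of TAIR10, the 24-nt coverage count that the authors divided by all mapped reads of a library (RPTM), so reads that span 2 bins enter each of them. Each column names 1 library, and replicates were not pooled.

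From these values, reads per bin were recovered as whole multiples of the value of 1 read (within 0.01 read). In *pkl* replicate 1 that value is 0.991, close to 1, and 100% of its values were whole multiples of it within this limit. Bins above 5 RPTM in at least 1 library were tested, 56658 of 57094, by limma 3.58.1 in R 4.3.3 (lmFit, eBayes with trend) on log2(RPTM + 1) of the 6 libraries compared, two-sided, with Benjamini-Hochberg adjustment over all tested bins and calls at an adjusted p under 0.01. The pseudocount understates the change of low bins. The scripts were tested on simulated data. Counting intervals of read ratios are exact binomial (95%). Precursors were folded with RNAfold 2.7.2. No bin ended beyond its chromosome in the reference. The members and gene lists were chosen with earlier results of these data known. The genes and bins named in the text are the 6 named bins, flanking bins called in any comparison or opposite in direction to their named bin, and the 2 other miRNA genes most like each named bin by Pearson correlation of log2(RPTM + 1) over the 12 libraries. Other flanking values are shown to complete a locus. Alternatives were pseudocounts of 0.1 and 5, no filter or a mean of at least 5 RPTM, equal 24-nt totals, equal totals over conserved miRNA bins, a joint fit of the 4 genotypes, a replicate block, edgeR 4.0.16 (authors' library sizes or TMM) and DESeq2 1.42.0 on the recovered reads, an adjusted p of 0.05, and leaving out each library.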

Additional observations from a re-analysis of the deposited data

How the results depend on the processing

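The number of the 17 bins called moved with the setting, as did that over all 56658 tested bins, and the cause was not tested. For all tested bins, calls are given as higher and lower. In *pkl* against WT the count of 1 became 0 with a pseudocount of 0.1, 2 with equal 24-nt totals, with equal totals over conserved miRNA bins and at an adjusted p of 0.05, and 3 with edgeR and TMM or DESeq2. It lay between 0 and 3 with 1 library left out. All tested bins had 1124 and 4645 calls, and 354 and 1803 with the pseudocount of 0.1. They had 2232 and 4393 with equal 24-nt totals, 1535 and 5111 with equal conserved totals and 2308 and 7687 at 0.05. edgeR and TMM gave 3492 and 5191, and DESeq2 1926 and 3004 of 33587. Leaving out 1 library gave 478 to 1852 and 2097 to 5180. In *nrpd1* against WT the count of 8 became 13 with equal 24-nt totals and at an adjusted p of 0.05, and 5 with equal conserved totals. The calls over all tested bins went from 80 and 47918 to 1345 and 44319, 310 and 49362, and 13 and 49574, in the same order. In *nrpe1* against WT the count of 1 became 2 with a pseudocount of 5, equal 24-nt totals, equal conserved totals, the joint fit and edgeR with the authors' library sizes, and 3 with edgeR and TMM and at an adjusted p of 0.05. All tested bins had 577 and 16652 calls. In the same order of settings they had 863 and 18132, 2403 and 12702, 410 and 17251, 890 and 19088, and 1031 and 18413. They had 2262 and 16380 with edgeR and TMM and 1832 and 21074 at 0.05. In *nrpd1* against *nrpe1* the count of 6 became 2 with equal conserved totals, 11 with edgeR and TMM, and 1 to 3 with 1 library left out. The calls over all tested bins went from 37 and 24471 to 6 and 27326 and to 368 and 19892. With 1 library left out they were 21 to 41 and 13673 to 26319. In *pkl* against *nrpd1* the count of 8 became 5 with equal conserved totals and 5 with any library left out. The calls over all tested bins went from 42309 and 108 to 45872 and 46, and to 32716 to 41180 and 55 to 114. In *pkl* against *nrpe1* the count of 2 became 1 with a pseudocount of 0.1 or equal 24-nt totals, 4 with a mean level of at least 5 RPTM, the joint fit, edgeR and TMM or an adjusted p of 0.05, and 0 to 2 with 1 library left out. All tested bins had 10185 and 551 calls. In the same order of settings they had 6916 and 293, 8949 and 2057, and 9287 and 615 of 28860. Then followed 15061 and 2198, 11777 and 3872, and 15315 and 2585. With 1 library left out they had 4610 to 8237 and 97 to 288.

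Of the 18 differences of the named bins from WT, the directions at the lowest levels were not stable. With 1 library left out, the difference in *pkl* ranged from -0.76 to 0.13 at *MIR835*, from -0.39 to 0.66 at *MIR862* and from -0.27 to 0.61 at *MIR5656*, and in *nrpe1* from -0.39 to 0.44 at *MIR862*, where equal conserved totals gave -0.020. In *nrpe1*, *MIR835* passed with equal 24-nt totals (2.32), the joint fit (1.92) and edgeR with TMM (2.44), and *MIR863* with edgeR and TMM (1.87). Equal conserved totals moved the median of all tested bins in *nrpd1* against WT from -2.95 to -3.33, and equal 24-nt totals moved it to -2.50.

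Libraries with the same replicate number deviated together weakly at most: their correlations lay between -0.04 and 0.17 over the 6 comparisons. In *nrpd1* against *nrpe1* they were all positive, between 0.041 and 0.104. With the replicate block the count in *nrpd1* against *nrpe1* was 1 in place of 6, where the 5 higher bins had limma adjusted p from 0.015 to 0.033, and those in the other comparisons were 1, 10, 1, 7 and 3. Depth limits *MIR862*, *MIR835* and *MIR5656*, whose WT levels rest on 1, 4 and 7 reads.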
